A study of Homo sapiens with 21 samples.

Results

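The 8 BH3-only genes PMAIP1, BBC3, BCL2L11, BMF, BIK, HRK, BID and BAD were followed over time after oxidative stress or DNA breaks. They were chosen by symbol, but with earlier results of these data known, so the choice cannot be called independent of their values. All 8 were found among the 23368 genes of the deposited table, and all 8 were among the 19694 genes whose value was not 0 in every library. The cells were hTERT-HPNE, an immortalized, nontransformed line from human pancreatic duct. The 21 cultures, 3 biological replicates in each of 7 groups, were grown in the same medium with glucose, serum, EGF and puromycin. One group was untreated and harvested at 0 h. Others were moved to fresh medium with 300 μM H2O2, an oxidant, and harvested after 4, 8 or 24 h. The remaining groups received 400 ng/ml NCS (neocarzinostatin), a radiomimetic drug that breaks both strands of DNA, and were harvested at the same times. No untreated culture was harvested at 4, 8 or 24 h, so an effect of treatment cannot be told apart from one of fresh medium or time in culture, except where H2O2 is set against NCS at the same time.

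BH3-only proteins are the sensors of the mitochondrial death pathway. Each carries a short helix, the BH3 domain, that fits into a groove of the BCL2 family. When they bind the guardian proteins (BCL2, BCL-XL, BCL-W, MCL1, A1), the effectors BAX and BAK are set free to open the outer mitochondrial membrane, and some BH3-only proteins also activate BAX and BAK directly. Several, among them PMAIP1 (NOXA), BBC3 (PUMA) and BCL2L11 (BIM), are switched on by transcription, the last by FOXO factors. BID and BAD are controlled mainly at the protein level, by caspase cleavage and by phosphorylation.

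The sequences upstream of the members are shown here because transcripts of several factors that bind such sites were measured in the same libraries. RefSeq promoter windows (GRCh38.p14) of 250 bases before to 50 bases after a start site were found for 7 of the 8 members. They were searched on both strands for the AP-1 site TGANTCA, the CRE TGACGTCA, the FOXO site GTAAACA, the E2F site TTTNGCGC, and the CRE half-site CGTCA, which the full CRE contains. The stretch upstream of PMAIP1, the member that differed most between H2O2 and NCS at 4 and 8 h, is printed whole, from chr18:59899746-59899947 on the plus strand, ending at the base before the GENCODE v29 start. It was 76.2% G and C, and the capitals mark the CRE half-site at bases 59899941 to 59899945.
PMAIP1: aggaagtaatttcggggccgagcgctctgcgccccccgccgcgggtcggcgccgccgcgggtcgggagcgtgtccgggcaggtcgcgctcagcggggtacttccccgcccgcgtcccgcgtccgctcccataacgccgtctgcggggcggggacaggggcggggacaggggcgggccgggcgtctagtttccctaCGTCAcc

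For 2 further members, 30 bases around the match are given. The BBC3 piece lies on the minus strand at chr19:47232762-47232791, and its capitals mark an AP-1 site. The BCL2L11 piece lies on the plus strand at chr2:111120680-111120709, and its capitals mark a FOXO site.
BBC3: gcactggaaggTGAGTCActctggtgaggc
BCL2L11: gagttactccgGTAAACAcgccagggacgg

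The AP-1 site was present in 7.72% of the 34943 RefSeq windows and the FOXO site in 3.42%. The CRE half-site was also found in windows of BAD, HRK and BMF and is common, with 24.5% of all windows holding it. No member's window held the full CRE (1.84% of all windows) or the E2F site (1.77%). A match is a description of letters, and sites outside these windows were not searched.

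The deposited values are rLog values, that is log2 values made by the authors with DESeq2 from read counts. The rLog transformation draws in differences, most strongly for genes with few reads. Values are not per length, so levels are compared between libraries for 1 gene and not between genes. Without counts the sequencing depth cannot be read from the table, and nothing that needs it, such as a counting interval or a detection floor, is given. Library medians lay between 7.14 and 7.19. Nestin (NES, 11.8 to 12.3), vimentin (VIM, 16.8 to 17.2) and KRT18 (11.4 to 11.9) were high in all libraries, KRT7, KRT8 and SOX9 lay between 5.78 and 8.28, and the duct keratin KRT19 was near the bottom of the scale at 0.58 to 0.73. PRSS1 and INS were 0 in every library, CPA1, AMY2A, GCG and SST were below 0, and CEL (3.67 to 4.15), PTPRC (0.89 to 0.98) and PECAM1 (2.02 to 2.42) were low.

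Limma was fitted once to all 7 groups to test differences. A member passed at a Benjamini-Hochberg adjusted p under 0.05 over all 19694 genes, and was called differentially expressed if the log2 difference was also over 1 in size. The smallest two-sided p of an exact permutation test on 1 gene is 0.1 with 3 libraries a group. The 6 comparisons with untreated cells share the same 3 untreated libraries. In bulk RNA, fewer cells of a kind and less RNA per cell cannot be told apart, and cells that had died and detached before harvest may not be represented.

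BBC3 rose in every treated group, PMAIP1 rose by over 1 in H2O2 at 4 and 8 h and by less in H2O2 at 24 h and in NCS at 4 and 8 h, and BCL2L11 rose in H2O2 at 4 and 8 h. BAD rose slightly at 4 h in both treatments, BID fell slightly at 24 h in both, and BIK and HRK were near the bottom of the scale in all 21 libraries. At 4, 8 and 24 h in H2O2, respectively 5, 3 and 5 of the 8 members passed as higher, against 26.2%, 18.8% and 20.2% of all genes. In the same groups 0, 0 and 1 members passed as lower, against 19.7%, 18.6% and 19.9% of all genes. The higher counts at 4 and 24 h each include BIK, whose differences are too near the bottom of the scale to give a useful size. The other members higher at 4 and 8 h kept their calls in every alternative described below. Of those higher at 24 h, BBC3 kept its call in 11 of 11 alternatives and PMAIP1 in 10 of 11. BAD kept its call in 8 of 11 and BMF in 6 of 10. In NCS, 4, 2 and 1 members passed as higher at 4, 8 and 24 h, against 7.47%, 10.5% and 19.6% of all genes, and 0, 0 and 1 as lower, against 9.72%, 13.3% and 18.4%. BIK is again among the 4 members higher at 4 h. Where 0 members passed as lower, limma gave 0 at an unadjusted p under 0.05 too. Differentially expressed members were BBC3 and PMAIP1 in H2O2 at 4 and 8 h (0.696% and 0.518% of all genes were called there), BBC3 alone in H2O2 at 24 h (1.61%), and BBC3 alone in NCS at 4 and 8 h (0.218% and 0.34%). No member was called in NCS at 24 h (1.5%). The median difference of the 8 members from untreated cells was 0.09, 0.0060 and 0.10 in H2O2 and 0.05, 0.0012 and 0.0050 in NCS at 4, 8 and 24 h, while that of all genes lay between -0.00034 and 0.0038.

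**Figure D1:**
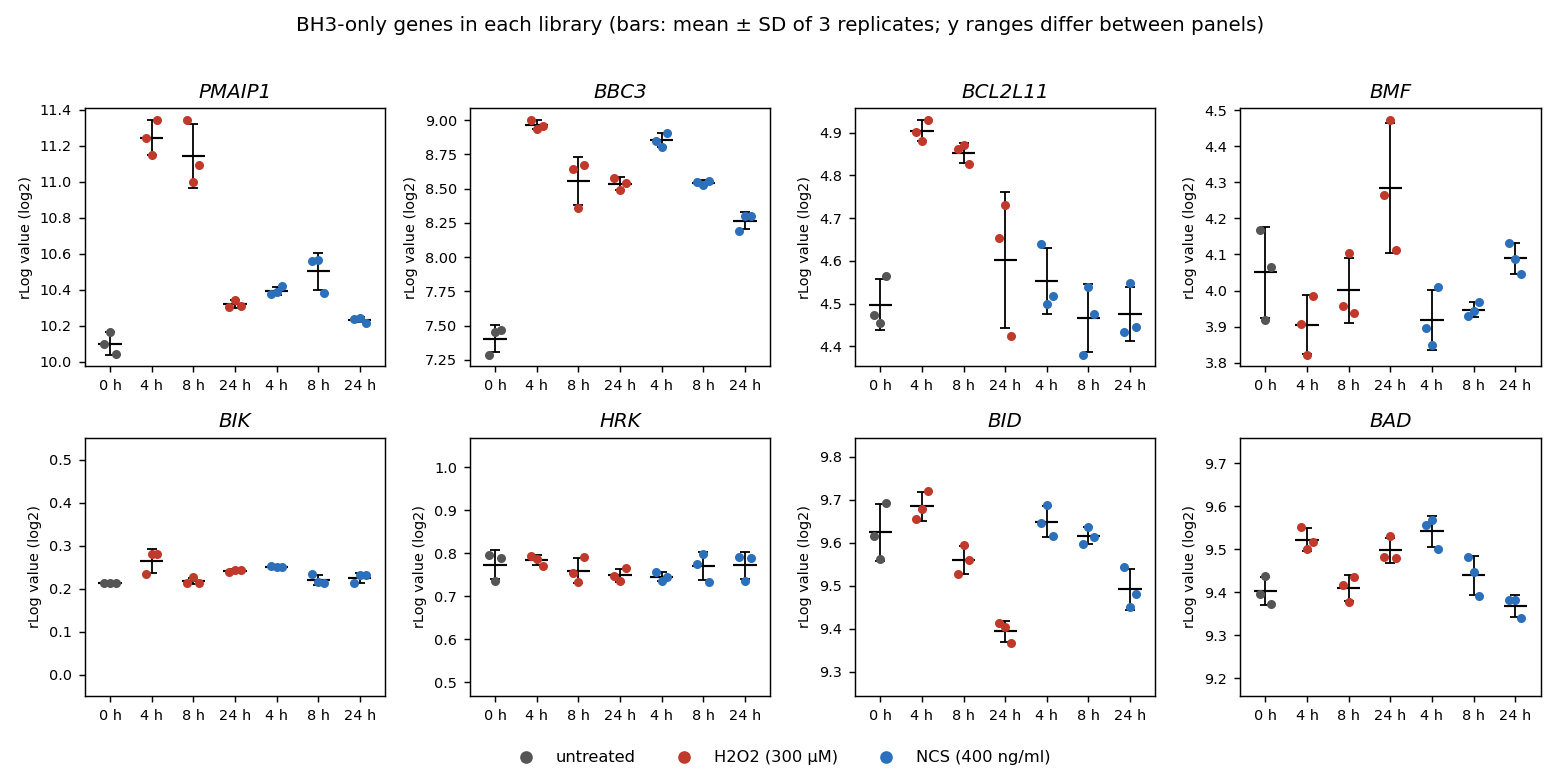
rLog value (log2) of each BH3-only gene in each of the 21 libraries, by treatment and hours after treatment. Points are libraries, and bars are the mean ± SD of 3 replicates, with y ranges that differ between panels. BBC3 stands at 7.29 to 7.47 in untreated cells and at 8.19 or more in every treated library, while PMAIP1 stands at 11 or more only in H2O2 at 4 and 8 h.

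BBC3, BCL2L11 and BID encode the members with the broadest reach, which bind all guardians and can also activate BAX and BAK. BBC3 (PUMA; ENSG00000105327.17, GRCh38, chr19:47220822-47232766, minus strand in GENCODE v29) was 7.29, 7.46 and 7.47 in the untreated libraries. The H2O2 libraries were 9.001, 8.94 and 8.96 at 4 h, then 8.64, 8.36 and 8.68 at 8 h, then 8.58, 8.49 and 8.54 at 24 h. The NCS libraries were 8.85, 8.80 and 8.91 at 4 h, then 8.55, 8.53 and 8.56 at 8 h, then 8.19, 8.30 and 8.30 at 24 h. All 18 treated libraries thus lay above the 3 untreated ones, with the 4 h libraries highest in both treatments. In H2O2 the difference from untreated cells was 1.56 at 4 h (SE 0.065, adjusted p = 1.89e-12 from limma), 1.15 at 8 h and 1.13 at 24 h. In NCS it was 1.45 at 4 h (adjusted p = 2.62e-11 from limma), 1.14 at 8 h and 0.86 at 24 h.

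BBC3 thus stood highest at 4 h after either agent. At 4 h the H2O2 mean was 0.11 above the NCS mean, with a 95% interval of the difference from -0.02 to 0.25 (adjusted p = 0.172 from limma), although the 3 libraries of each group did not overlap. At 8 h the difference was 0.01 (-0.12 to 0.15, adjusted p = 0.954) and the libraries overlapped. At 24 h BBC3 was higher in H2O2 by 0.27 (0.14 to 0.41, adjusted p = 0.00484), and no library overlapped. Between 4 and 8 h BBC3 fell in H2O2 by 0.41 and in NCS by 0.31 (adjusted p = 4.91e-05 and 0.00307 from limma). Between 8 and 24 h it fell in NCS by 0.28 (adjusted p = 0.00261), and the change in H2O2 was -0.02 (-0.16 to 0.11, adjusted p = 0.867). Whether the treatments differed in their change over this interval was not tested. The change of the H2O2 minus NCS difference from 4 to 24 h was 0.16 (-0.04 to 0.35, adjusted p = 0.193). In order of mean, BBC3 was highest in H2O2 at 4 h, then NCS at 4 h, H2O2 at 8 h, NCS at 8 h, H2O2 at 24 h, NCS at 24 h and untreated cells. Libraries of H2O2 at 8 h, NCS at 8 h and H2O2 at 24 h overlapped. BBC3 shares exonic bases with the microRNA genes MIR3191, on its own strand, and MIR3190, on the opposite strand.

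BCL2L11 (BIM; ENSG00000153094.22, GRCh38, chr2:111119378-111168447, plus strand) was 4.47, 4.45 and 4.56 in the untreated libraries. In H2O2 it was 4.90, 4.88 and 4.93 at 4 h, then 4.86, 4.87 and 4.83 at 8 h, then 4.65, 4.73 and 4.42 at 24 h. In NCS it was 4.64, 4.50 and 4.52 at 4 h, then 4.38, 4.54 and 4.48 at 8 h, then 4.43, 4.55 and 4.44 at 24 h. All 6 H2O2 libraries of 4 and 8 h lay above every untreated and NCS library, whereas those of 24 h overlapped with both. The rise of BCL2L11 in H2O2 was 0.41 at 4 h and 0.36 at 8 h (SE 0.067, limma adjusted p = 6.18e-05 and 0.000292). The 24 h difference was 0.11 (-0.04 to 0.25, adjusted p = 0.254). Without H2O2 24 h replicate 3, the lowest of its group, it was 0.19 and passed (adjusted p = 0.0146 from limma).

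In NCS no BCL2L11 difference from untreated cells passed. The values were 0.06 at 4 h (-0.09 to 0.20), -0.03 at 8 h (-0.17 to 0.11) and -0.02 at 24 h (-0.16 to 0.12). Set directly against NCS, BCL2L11 stood higher in H2O2, by 0.35 at 4 h and 0.39 at 8 h (adjusted p = 0.000288 and 0.00016 from limma). The 24 h difference was 0.13 (-0.01 to 0.27, adjusted p = 0.211), and 0.22 without H2O2 24 h replicate 3 (adjusted p = 0.0154 from limma). Within H2O2 BCL2L11 fell by 0.25 between 8 and 24 h (adjusted p = 0.00496). In a fit of only those 2 groups this fall did not pass (adjusted p = 0.0661), the highest of its 10 alternatives, which began at 0.000704. The 4 h and 8 h libraries of H2O2 differed by -0.05 (-0.19 to 0.09, adjusted p = 0.573). The fall in the H2O2 minus NCS difference from 4 to 24 h, -0.22, did not pass (adjusted p = 0.0694). By mean, BCL2L11 ran from H2O2 at 4 h down to H2O2 at 8 h and at 24 h, then NCS at 4 h, untreated cells, NCS at 24 h and NCS at 8 h, and neighbours overlapped from H2O2 at 24 h downward. An exon of the antisense gene MIR4435-2HG overlaps one of BCL2L11.

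BID (ENSG00000015475.18, GRCh38, chr22:17734138-17774770, minus strand), which links death receptors to mitochondria once caspase 8 has cut it, was 9.61, 9.56 and 9.69 in the untreated libraries. The H2O2 libraries were 9.65, 9.68 and 9.72 at 4 h, then 9.53, 9.59 and 9.56 at 8 h, then 9.41, 9.40 and 9.37 at 24 h. The NCS libraries were 9.65, 9.69 and 9.61 at 4 h, then 9.60, 9.64 and 9.61 at 8 h, then 9.54, 9.45 and 9.48 at 24 h. The 24 h libraries were the lowest in each treatment, and those of H2O2 did not overlap with any other group. At 24 h BID fell by 0.23 in H2O2 and 0.13 in NCS (SE 0.033, limma adjusted p = 1.32e-05 and 0.00328). The NCS fall did not pass after quantile normalization (adjusted p = 0.113) or in a fit of the 2 groups alone (0.055), and its alternatives ranged from 0.0010 to 0.113.

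No BID difference from untreated cells passed at 4 or 8 h, where values lay between -0.06 and 0.06. In H2O2 BID declined in both intervals, with changes of -0.12 from 4 to 8 h and -0.17 from 8 to 24 h (adjusted p = 0.00461 and 0.00043 from limma). In NCS it was -0.03 in the first interval (adjusted p = 0.667) and -0.12 in the second (adjusted p = 0.00707). BID was lower in H2O2 than in NCS at 24 h by a difference of -0.10 (-0.17 to -0.03, adjusted p = 0.0427), a call that 7 of 11 alternatives did not keep (adjusted p from 0.0118 to 0.199). At 4 h the difference was 0.04 and at 8 h -0.06, and neither passed. Its change from 4 to 24 h, -0.13, passed (adjusted p = 0.0309 from limma) in 12 of 17 alternatives, with adjusted p from 0.00334 to 0.088. By mean, BID was ordered as H2O2 at 4 h, NCS at 4 h, untreated cells, NCS at 8 h, H2O2 at 8 h, NCS at 24 h and H2O2 at 24 h, and the first 4 overlapped as neighbours, as did H2O2 at 8 h with NCS at 24 h.

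The other members bind selected guardians. PMAIP1 (NOXA; ENSG00000141682.11, GRCh38, chr18:59899948-59904306, plus strand), which binds MCL1 and A1, was 10.10, 10.16 and 10.04 in the untreated libraries. In H2O2 it was 11.25, 11.15 and 11.34 at 4 h, then 11.34, 11.001 and 11.09 at 8 h, then 10.30, 10.34 and 10.31 at 24 h. In NCS it was 10.38, 10.39 and 10.42 at 4 h, then 10.56, 10.56 and 10.38 at 8 h, then 10.24, 10.24 and 10.22 at 24 h. Each treated library was above each untreated one, and the 6 H2O2 libraries of 4 and 8 h were above all others. PMAIP1 was up in H2O2 by 1.15, 1.04 and 0.22 at 4, 8 and 24 h (SE 0.067, limma adjusted p = 1.64e-10, 1.25e-09 and 0.0128). The 24 h call was lost without untreated replicate 3 (adjusted p = 0.0588, against 0.00158 to 0.0153 under the alternatives that kept all libraries). Without H2O2 8 h replicate 1, the 8 h rise was 0.95 and under the limit of 1.

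In NCS the rise of PMAIP1 was 0.29 at 4 h and 0.40 at 8 h (adjusted p = 0.00405 and 0.000157 from limma), and the 24 h difference was 0.13 (-0.01 to 0.27, adjusted p = 0.139). H2O2 exceeded NCS by 0.85 at 4 h (0.71 to 0.99, adjusted p = 8.27e-09) and by 0.64 at 8 h (0.50 to 0.78, adjusted p = 7.03e-07). At 24 h it was 0.09 (-0.05 to 0.23, adjusted p = 0.452), and the libraries did not overlap. From 4 to 24 h the H2O2 minus NCS difference changed by -0.77 (SE 0.094, adjusted p = 4.35e-06 from limma), and the change from 4 to 8 h, -0.21, did not pass (adjusted p = 0.102). Without H2O2 8 h replicate 1 that early change was -0.31 (adjusted p = 0.00404, the lowest of its alternatives, which reached 0.262). PMAIP1 fell between 8 and 24 h by 0.82 in H2O2 and by 0.27 in NCS (adjusted p = 1.14e-08 and 0.00438). By mean the order was H2O2 at 4 h and 8 h, whose libraries overlapped, NCS at 8 h and 4 h, which overlapped too, H2O2 at 24 h, NCS at 24 h and untreated cells. Replicate 2 of H2O2 at 8 h was the lowest of its group for PMAIP1 and BBC3, and without it the rises at 8 h were 1.12 and 1.26. It was also lowest for BAK1, ATF3, ATF4 and DDIT3. Without it, the BBC3 difference of H2O2 from NCS at 8 h was 0.115 (adjusted p = 0.0847 from limma). The BBC3 change from 8 to 24 h in H2O2 was then -0.123 (adjusted p = 0.0569 from limma). Neither passed. Why this library was lowest was not tested.

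BAD (ENSG00000002330.13, GRCh38, chr11:64269830-64284704, minus strand), which binds BCL2, BCL-XL and BCL-W and is held back by 14-3-3 proteins when phosphorylated, was 9.40, 9.44 and 9.37 in the untreated libraries. In H2O2 it was 9.55, 9.50 and 9.52 at 4 h, then 9.42, 9.38 and 9.44 at 8 h, then 9.48, 9.53 and 9.48 at 24 h. In NCS it was 9.56, 9.57 and 9.50 at 4 h, then 9.48, 9.45 and 9.39 at 8 h, then 9.38, 9.38 and 9.34 at 24 h. The 4 h libraries of both treatments lay above all untreated ones, and the 8 h libraries overlapped with them. BAD rose at 4 h by 0.12 in H2O2 and by 0.14 in NCS (SE 0.029, adjusted p = 0.00224 and 0.00197 from limma). From 4 to 8 h it fell by 0.11 in H2O2 (limma adjusted p = 0.00375). In NCS it fell by 0.10 over the same interval (adjusted p = 0.0229, not past the threshold in 5 of 11 alternatives, from 0.0149 to 0.125).

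The treatments parted at 24 h, when BAD was 0.10 above untreated cells in H2O2 (adjusted p = 0.0125) and -0.03 from them in NCS (adjusted p = 0.417). The H2O2 value did not pass with library medians set equal (adjusted p = 0.0932), without untreated replicate 3 (0.0605) or without H2O2 24 h replicate 2 (0.0669), in a range from 0.000293 to 0.0932. Set against NCS at 24 h, BAD was higher in H2O2 by 0.13 (0.07 to 0.19, adjusted p = 0.00275), with no overlap. The differences at 4 and 8 h were -0.02 and -0.03 and did not pass, and the change from 4 to 24 h was 0.15 (SE 0.041, adjusted p = 0.00712 from limma). BAD rose by 0.09 in H2O2 from 8 to 24 h (adjusted p = 0.0199, not past the threshold in 4 of 11 alternatives, from 0.00161 to 0.116). By mean BAD was highest in NCS at 4 h, then H2O2 at 4 h and 24 h, NCS at 8 h, H2O2 at 8 h, untreated cells and NCS at 24 h, and each neighbour in that order overlapped with the next. An exon of GPR137 lies opposite one of BAD, and GPR137 has its own values in the table. The library kit keeps strand, and the strand setting used in counting is not given in the sources used here.

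BMF (ENSG00000104081.13, GRCh38, chr15:40087890-40108892, minus strand), which waits on the actin and myosin skeleton bound to the dynein light chain DYNLL2, was 4.17, 3.92 and 4.06 in the untreated libraries. The H2O2 libraries were 3.91, 3.82 and 3.98 at 4 h, then 3.96, 4.10 and 3.94 at 8 h, then 4.26, 4.47 and 4.11 at 24 h. The NCS libraries were 3.90, 3.85 and 4.01 at 4 h, then 3.93, 3.94 and 3.97 at 8 h, then 4.13, 4.09 and 4.05 at 24 h. The 24 h libraries of H2O2 were the highest group by mean but overlapped with the untreated libraries. In H2O2 the 24 h value of BMF was up 0.23 on untreated cells and 0.28 on the 8 h value (SE 0.080, limma adjusted p = 0.0253 and 0.00716). The first call was lost after quantile normalization (adjusted p = 0.078), in a fit of the 2 groups alone (0.144), and without untreated replicate 2 (0.145) or H2O2 24 h replicate 2 (0.185), where the difference was 0.17 or 0.14, and its lowest value was 0.00357. The second was lost in a fit of the 2 groups alone (0.0771) and without H2O2 24 h replicate 2 (0.0586), with a lowest value of 0.0011. In NCS, BMF passed at no time, with differences of -0.13, -0.10 and 0.04. Every neighbour in its order of means overlapped, from H2O2 at 24 h, NCS at 24 h and untreated cells down to H2O2 at 4 h. Its exons overlap those of the antisense gene BMF-AS1.

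BIK (ENSG00000100290.2, GRCh38, chr22:43110748-43129712, plus strand), which sits at the endoplasmic reticulum, and HRK (ENSG00000135116.9, GRCh38, chr12:116856144-116881441, minus strand), a binder of BCL-XL known mainly from neurons, lay near the bottom of the scale. BIK was 0.21 in each untreated library and between 0.21 and 0.28 in all 21. HRK was between 0.73 and 0.80 in all 21, and passed in none of the 13 comparisons by limma, also at an unadjusted p under 0.05. BIK passed with differences of 0.05 in H2O2 at 4 h, 0.03 in H2O2 at 24 h, 0.04 in NCS at 4 h and -0.05 from 4 to 8 h in H2O2 (adjusted p = 0.000483, 0.0368, 0.017 and 0.00108 from limma). The whole range of BIK over the 21 libraries was 0.07, and at such low values rLog draws libraries to nearly 1 value. These 4 calls thus give no useful size, and without counts it cannot be told whether their direction rests on very few reads.

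Between H2O2 and NCS at the same time, 2 members passed as higher in H2O2 at 4 h (PMAIP1, BCL2L11), the same 2 at 8 h, and BBC3 and BAD at 24 h, against 26.3%, 18.7% and 11% of all genes. At 4 and 8 h 0 members were lower in H2O2, and at 24 h BID was, against 18%, 15.4% and 10.9% of all genes. No member passed a log2 difference of 1 in these comparisons, which 0.574%, 0.162% and 0.0152% of all genes did. In H2O2, 4 members moved from 4 to 8 h, all lower, and 5 from 8 to 24 h, 2 of them higher, against 45.7% and 42.6% of all genes in either direction. In NCS these numbers were 2 and 3, all lower, against 13.7% and 29.9%. BIK, near the bottom of the scale, is among the 4 members lower from 4 to 8 h in H2O2. The change of the H2O2 minus NCS difference passed for 0 members from 4 to 8 h by limma (1 at an unadjusted p under 0.05, PMAIP1) and for 3 members from 4 to 24 h, against 32.7% and 39.4% of all genes. These were PMAIP1 and BID, lower, and BAD, higher.

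**Figure D2:**
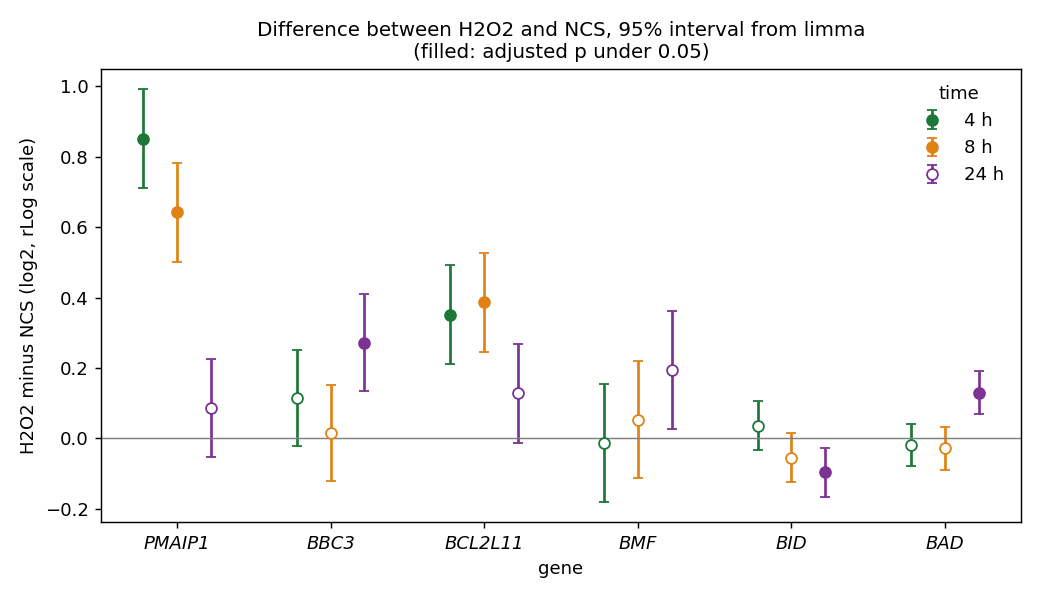
H2O2 minus NCS difference (log2, rLog scale) at 4, 8 and 24 h for the 6 members above the bottom of the scale. Points are limma estimates from 3 libraries a group, lines are 95% intervals, and filled points passed. PMAIP1 goes from 0.85 at 4 h to 0.09 at 24 h and BCL2L11 from 0.35 to 0.13, while BAD goes from -0.02 to 0.13.

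Across the 21 libraries PMAIP1 followed BCL2L11 with a Pearson correlation of 0.85 and BBC3 with 0.62, and BBC3 followed BAD with 0.62. BMF ran against BID at -0.67. These correlations describe 21 libraries in 7 groups that share 1 normalization and are given with no p. Among genes with a mean value of at least 5, those most like PMAIP1 were IER3, an immediate early gene (r = 0.962), HSPA6, an inducible heat shock protein (0.962), and RPL24, a ribosomal protein (0.957). IER3 was 11.1 in untreated cells, 12.2 and 11.9 in H2O2 at 4 and 8 h, and 11.5 in NCS at both times (group means). HSPA6 went from 5.25 in untreated cells to 7.87 in H2O2 at 4 h and 5.73 in NCS at 4 h. Those most like BBC3 were AEN, an apoptosis-enhancing nuclease (0.950), SERTAD1, a transcriptional cofactor (0.948), and CDC42SE1 (0.930). AEN was 11.4 in untreated cells and 12.1 at 4 h in each treatment.

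Among the genes most like BID were ACTG1, a cytoplasmic actin (r = 0.940), and PRDX3, a mitochondrial peroxidase (0.939), and among those most like BAD were ZNF623 (0.839) and SCAND1 (0.775). PRDX3 was 11.8 in untreated cells and 11.5 and 11.6 at 24 h in H2O2 and NCS. Over the 7 group means in place of the libraries, 1 of the 3 genes most like PMAIP1 and BID was the same, and 2 of those most like BBC3. HSPA6, RPL24 and ACTG1 have near-identical copies elsewhere in the genome, so their counts are uncertain.

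The effectors and guardians, partners of the BH3-only proteins, changed by up to 0.62 in size. Of the 3 effectors, BAX and BAK1, which form the pore, rose in all 6 treated groups, by 0.16 to 0.39 and by 0.18 to 0.62. As higher, 2, 2 and 2 effectors passed in H2O2 at 4, 8 and 24 h, against 26.2%, 18.8% and 20.2% of all genes. In NCS 3, 2 and 2 did, against 7.47%, 10.5% and 19.6%. As lower, 0, 0 and 1 passed in H2O2 (all genes 19.7%, 18.6% and 19.9%). In NCS 0, 0 and 0 were lower (9.72%, 13.3% and 18.4%). The rise of BAK1 was highest at 8 h after H2O2 (0.62, limma adjusted p = 5.96e-08), where its libraries were 10.53, 10.33 and 10.58 against 9.79, 9.82 and 9.97 untreated. The third effector, BOK, rose in NCS at 4 h (0.15) and fell in H2O2 at 24 h (-0.23). At 4 h BAX, BAK1 and BOK all passed as lower in H2O2 than in NCS (-0.06, -0.15 and -0.14), against 18% of all genes. BAX and BAK1 also differed between the treatments at 8 h (-0.22 and 0.29) and at 24 h (0.15 and 0.21). BOK did not pass at 8 h and was lower in H2O2 at 24 h (-0.14). Of all genes, 18.7% were higher and 15.4% lower at 8 h, and 11% and 10.9% at 24 h. The list's median was 0.20, 0.16 and 0.31 in H2O2 and 0.26, 0.33 and 0.16 in NCS at 4, 8 and 24 h, and that of all genes lay between -0.00034 and 0.0038.

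Of the 6 guardians, MCL1, the main partner of NOXA, differed between the treatments at all 3 times. Its untreated libraries were 13.14, 13.07 and 13.06, and those of H2O2 at 4 h were 13.42, 13.37 and 13.38. NCS at 4 h gave 13.05, 13.08 and 13.12, overlapping with the untreated libraries. MCL1 rose by 0.30 in H2O2 at each of 4, 8 and 24 h (adjusted p = 4.03e-08, 5.81e-08 and 1.65e-08 from limma), and its NCS differences were -0.01, 0.00 and 0.09, of which the last passed. H2O2 exceeded NCS in MCL1 by 0.30, 0.29 and 0.21, and all passed. At 4 h BCL2 was also higher in H2O2 than in NCS (0.20, adjusted p = 0.0151 from limma) and BCL2L1 lower (-0.16, adjusted p = 0.000378), and at 8 h BCL2L2 was higher (0.24, adjusted p = 6.62e-05). BCL2L1 (BCL-XL) rose at 8 and 24 h in both treatments by 0.25 to 0.30, and at 4 h in NCS by 0.12. BCL2 fell at 24 h by 0.42 in H2O2 and by 0.50 in NCS. In all, 3, 3 and 3 guardians passed as higher in H2O2 at 4, 8 and 24 h, against 26.2%, 18.8% and 20.2% of all genes, and 1, 1 and 3 in NCS, against 7.47%, 10.5% and 19.6%. BCL2 was the 1 that passed as lower at 8 and 24 h in each. The list medians lay between 0.0072 and 0.13. BCL2L2 (BCL-W) was among the 3 at each time in H2O2, by 0.16 to 0.25. BCL2A1 and BCL2L10 were below 0 in all libraries, and a difference of 0.06 in BCL2L10 was counted in H2O2 at 4 h, both against untreated cells and against NCS.

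**Figure D3:**
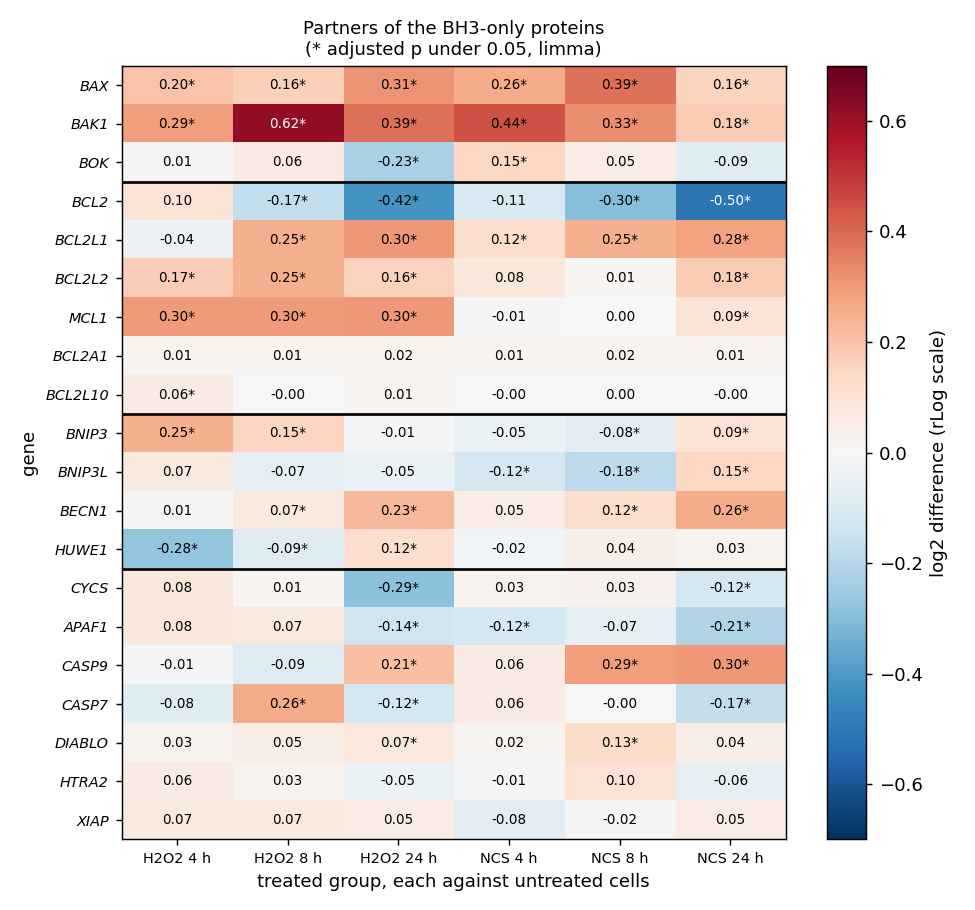
Log2 difference (rLog scale) of 20 partner genes in each treated group against untreated cells, 3 libraries a group. Rows hold effectors, guardians, other BH3-bearing genes and later steps, separated by lines, colour and number give the difference, and a star marks an adjusted p under 0.05 from limma. BAX and BAK1 carry a star in all 6 columns, and MCL1 stands at 0.30 in the 3 H2O2 columns against -0.01, 0.00 and 0.09 in the NCS columns.

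Of 4 other BH3-bearing genes, BNIP3, a mitophagy receptor, rose in H2O2 at 4 and 8 h (0.25 and 0.15) and in NCS fell at 8 h (-0.08) and rose at 24 h (0.09). Its relative BNIP3L fell in NCS at 4 and 8 h (-0.12 and -0.18) and rose at 24 h (0.15). HUWE1, a ligase that targets MCL1 for destruction, fell in H2O2 at 4 and 8 h (-0.28 and -0.09) and rose at 24 h (0.12), and passed at no time in NCS. BECN1, an autophagy protein, rose at 8 and 24 h in both treatments, by 0.07 to 0.26. The list's median lay between -0.03 and 0.12.

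Of 7 genes for the steps after the mitochondrial pore, 0, 1 and 2 passed as higher in H2O2 at 4, 8 and 24 h and 0, 0 and 3 as lower. All genes passed there as higher in 26.2%, 18.8% and 20.2% and as lower in 19.7%, 18.6% and 19.9%. In NCS 0, 2 and 1 were higher (7.47%, 10.5% and 19.6% of all genes) and 1, 0 and 3 lower (9.72%, 13.3% and 18.4%). CASP9, the caspase of the apoptosome, rose at 24 h in H2O2 (0.21) and at 8 and 24 h in NCS (0.29 and 0.30). Its scaffold APAF1 fell at 24 h in H2O2 (-0.14) and at 4 and 24 h in NCS (-0.12 and -0.21). The list medians were 0.06, 0.05 and -0.05 in H2O2 and 0.02, 0.03 and -0.06 in NCS at 4, 8 and 24 h. Of 10 genes that hold or modify BH3-only proteins, 7 fell in H2O2 at 24 h and 5 in NCS at 24 h, against 19.9% and 18.4% of all genes, with list medians of -0.12 and -0.08. They included DYNLL2, the anchor of BMF (-0.12 and -0.21), and the 14-3-3 gene YWHAH, a keeper of BAD (-0.64 and -0.59). At 4 h 4 rose and 1 fell in H2O2 and 2 rose and 2 fell in NCS, and at 8 h 2 rose and 4 fell in H2O2 and 2 rose and 5 fell in NCS, beside the same shares of all genes as above. CASP8, which cuts BID, fell in H2O2 at 4 and 8 h (-0.26 and -0.14) and passed at no time in NCS. BAK1, CYCS and several 14-3-3 genes have near-identical pseudogenes, so their counts are uncertain.

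Of 10 transcription factors known to act on BH3-only genes, 4, 4 and 3 passed as higher in H2O2 at 4, 8 and 24 h and 0, 2 and 4 as lower, where 26.2%, 18.8% and 20.2% of all genes were higher and 19.7%, 18.6% and 19.9% lower. In NCS 2, 3 and 3 were higher (all genes 7.47%, 10.5% and 19.6%) and 2, 3 and 4 lower (9.72%, 13.3% and 18.4%). The stress factors ATF3, ATF4 and DDIT3 (CHOP), which are known to act on PMAIP1, BBC3 or BCL2L11 in other settings, had the largest rises of this list in H2O2 at each time. At 24 h the fall of E2F1 was larger than any of them. ATF3 was 8.24, 8.22 and 8.19 in the untreated libraries, 11.68, 11.66 and 11.65 in H2O2 at 4 h and 9.78, 9.80 and 9.80 in NCS at 4 h. It rose by 3.45, 2.32 and 1.10 in H2O2 and by 1.58, 1.64 and 0.76 in NCS at 4, 8 and 24 h. ATF4 rose in H2O2 by 0.92, 0.97 and 0.55, and in NCS it fell by 0.18 at 4 h, was -0.04 at 8 h and rose by 0.21 at 24 h. DDIT3 rose in H2O2 by 1.45, 1.199 and 1.39, and in NCS by 0.83 at 8 h and 0.88 at 24 h, with a 4 h difference of 0.19 that did not pass (adjusted p = 0.0622).

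All 3 were higher in H2O2 than in NCS at every time, ATF4 by 1.10, 1.01 and 0.34 and DDIT3 by 1.26, 0.36 and 0.51. From 4 to 24 h the H2O2 minus NCS difference changed by -1.52 for ATF3, by -0.76 for ATF4 and by -0.75 for DDIT3. All 3 changes passed by limma. Of the 10 factors, 5 passed as lower in this change and 1 as higher, against 39.4% of all genes in either direction. At 24 h TP73 fell by 1.03 and E2F1 fell by 1.44 in H2O2, and TP73 fell by 1.04 and E2F1 fell by 1.45 in NCS. FOXO3, a regulator of BCL2L11, rose at 8 h by 0.26 in H2O2 and by 0.08 in NCS. In H2O2 and NCS its differences were 0.04 and -0.04 at 4 h and 0.02 and 0.05 at 24 h, and none passed. FOXO1 passed in none of the 6 comparisons. JUN was -0.01, 0.05 and -0.32 in H2O2 and 0.10, 0.08 and -0.39 in NCS at 4, 8 and 24 h. Only its 24 h values passed. MYC was 0.21, 0.06 and -0.19 in H2O2 and -0.36, -0.19 and -0.28 in NCS, and all but the 8 h value in H2O2 passed. The list medians lay between -0.01 and 0.06. Transcript levels do not measure the activity of these proteins, and their part in the levels of the BH3-only genes was not tested.

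**Figure D4:**
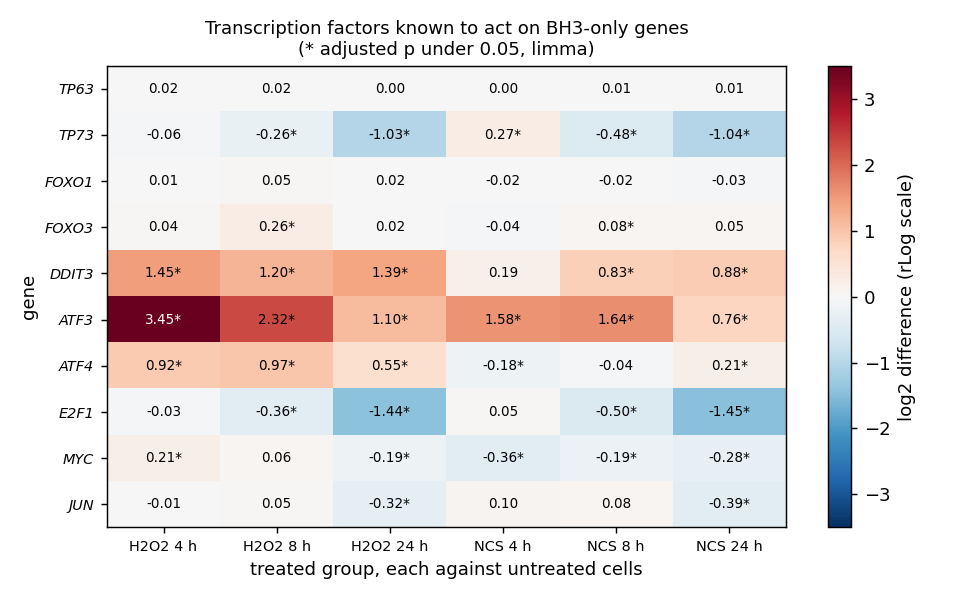
Log2 difference (rLog scale) of 10 transcription factor genes in each treated group against untreated cells, 3 libraries a group, with a star for an adjusted p under 0.05 from limma. ATF3 reaches 3.45 in H2O2 at 4 h against 1.58 in NCS, and ATF4 stands at 0.92, 0.97 and 0.55 in H2O2 against -0.18, -0.04 and 0.21 in NCS.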

How the data were processed

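RNA of 21 cultures was sequenced with a stranded mRNA kit. Alignment (HISAT2), counting per gene (htseq-count) and the rLog transformation (DESeq2) that gave the deposited log2 values were done by the authors. The submitters' processing notes name hg19, and tool versions and annotation are not given in the sources used here. The values were used as deposited.

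Limma 3.58.1 (R 4.3.3) fitted 7 groups at once with a mean-variance trend, for 13 comparisons and 2 interactions, with Benjamini-Hochberg adjustment over 19694 genes. Tested on simulated data for H2O2 at 4 h against untreated cells over 19694 genes, the fit recovered 89 of 100 genes shifted by 0.3 and 100 of 100 shifted by 1, and 5.97% of its calls were unchanged genes. The shifted genes had a mean of at least 5, and the noise was independent between libraries. These shares therefore do not carry over to BCL2L11, BMF, BIK and HRK, or to deviations that libraries share. Alternatives were library medians set equal, quantile normalization, a mean of at least 5, the groups compared alone, a replicate block, a log2 limit of 0.58 and leaving out each library. Groups and replicate numbers came from the labels.

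Named genes were the 8 members, the pathway lists and, for members with a mean of at least 5, the 3 genes with the highest correlation. Some genes that this rule names and 1 motif are not reported here, and the lists were counted without them. Members and lists were chosen with earlier results of these data known, and the CRE half-site was searched after the other motifs. Positions are from GENCODE v29 (GRCh38) and promoters from RefSeq (GRCh38.p14), matched by symbol, and no coordinate came from hg19. Calculations outside R used Python 3.11.15, numpy 2.4.6, pandas 2.3.3 and matplotlib 3.10.9.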

Additional observations from a re-analysis of the deposited data

Results flagged for a closer look

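For 3 members the effect of H2O2 relative to NCS differed between 4 and 24 h by limma's test of that change. The PMAIP1 difference changed by -0.77 (SE 0.094, adjusted p = 4.35e-06), from 0.85 at 4 h to 0.09 at 24 h, and the change passed in 17 of 17 alternatives. BID changed by -0.13 (SE 0.047, adjusted p = 0.0309), from 0.04 to -0.10, and passed in 12 of 17. BAD changed by 0.15 (SE 0.041, adjusted p = 0.00712), from -0.02 to 0.13, and passed in 17 of 17, with a largest adjusted p of 0.0498. Over all genes, 39.4% passed this test.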

How the results depend on the processing

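Of 473 values of the 42 member results that passed, recalculated under the alternatives, 439 kept direction and threshold, 34 kept direction only and 0 reversed. BIK and HRK were not followed gene by gene, and the limit on the mean of at least 5 removed them with BCL2L11 and BMF. Differences that changed direction were all uncalled. Among them, the BBC3 change of the H2O2 minus NCS difference from 4 to 8 h was -0.10 in the main fit. Depth is unknown and limits the low values most. The limit on the mean of at least 5 lowered counts by taking out BIK, HRK, BCL2L11 and BMF. Of its 60 values for the members kept, 0 lost a call. The cause of each other change below was not tested.

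With only genes of mean at least 5, members passing numbered 3 in H2O2 at 4 h, 1 in H2O2 against NCS at 4 h and 1 at 8 h, 3 from 8 to 24 h in H2O2, and 1 for the change of the H2O2 minus NCS difference from 4 to 8 h, where the number without this limit was 0. With only the groups compared, they numbered 4 in H2O2 against NCS at 4 h, 3 from 8 to 24 h in H2O2 and 5 for the change of the difference from 4 to 24 h. This number was also 5 with medians set equal, and quantile normalization gave 1 for the change from 4 to 8 h. Past a log2 difference of 0.58 in place of 1, there was 1 member in NCS at 24 h, 1 in H2O2 against NCS at 4 h and 1 at 8 h, 1 from 8 to 24 h in H2O2, and 1 for the change of the difference from 4 to 24 h.

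Uncalled differences that changed sign after quantile normalization were BID in NCS at 8 h (0.0214), BAD in NCS at 24 h (0.0260) and in H2O2 against NCS at 4 h (0.0156), and BCL2L11 from 4 to 8 h in H2O2 (0.0530) and from 8 to 24 h in NCS (-0.0108). With medians set equal, the BAD change of the difference from 4 to 8 h was 0.0135.

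Leaving out single libraries, members past a log2 difference of 1 in H2O2 at 8 h numbered 1 to 2 (1 without H2O2 8 h replicate 1). Members passing numbered 3 to 6 in H2O2 at 24 h (3 without untreated replicate 3), 3 to 5 from 8 to 24 h in H2O2 (3 without H2O2 24 h replicate 2), 1 to 3 from 4 to 8 h in NCS (1 without NCS 4 h replicate 1), and 0 to 1 for the change of the difference from 4 to 8 h. Uncalled differences crossed 0 as follows. Against untreated cells, BMF in H2O2 at 8 h ran from -0.116 to 0.00861 and BAD from -0.00683 to 0.0252, BID in NCS at 4 h from -0.00492 to 0.0599 and at 8 h from -0.0381 to 0.0267. BCL2L11 ran from -0.0686 to 0.0106 in NCS at 8 h and from -0.0582 to 0.0113 at 24 h, and BMF in NCS at 24 h from -0.0270 to 0.0978. In H2O2 against NCS, BMF at 4 h ran from -0.0525 to 0.0328 and BBC3 at 8 h from -0.0438 to 0.115. From 8 to 24 h, BBC3 in H2O2 ran from -0.123 to 0.0364 and BCL2L11 in NCS from -0.0329 to 0.0464, and BMF in NCS from 4 to 8 h from -0.00559 to 0.0747. For the change of the difference from 4 to 8 h, BBC3 ran from -0.158 to 0.00125, BCL2L11 from -0.00845 to 0.0723 and BAD from -0.0345 to 0.0110.

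The labels number replicates 1 to 3 in each group. Same-numbered libraries had mean correlations of -0.06 to 0.14 in their deviations across genes, and in no comparison did every pair exceed 0.1. They were not paired in the main fit, and the labels do not say whether they share a batch. With the replicate block, 89 of 90 values kept their call, and BID in H2O2 against NCS at 24 h (-0.10) had an adjusted p of 0.0572, in a range of 0.0118 to 0.199 over its alternatives. Each of 6 libraries correlated best with its own number in NCS at 24 h against untreated cells and in H2O2 against NCS at 8 and 24 h. There the mean same-number correlations were 0.09, 0.14 and 0.09, against -0.04, -0.07 and -0.04 for libraries of different number.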
